A study of Homo sapiens with 10 samples.

Results

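The JUN and ATF family genes of the AP-1 transcription factor that are described here are JUN, JUNB, JUND, ATF3 and BATF3. What is described is the ZEB1 signal around them, at every consensus site of the count table whose midpoint lay in the RefSeq gene or within 20 kb of either end. This rule used positions and no measured value, and it found 32 of 52981 sites, 5 at JUN, 7 at JUNB, 7 at JUND, 9 at ATF3 and 4 at BATF3. A filter on low counts passed 29 of the 32, and JUN site 1, ATF3 site 4 and BATF3 site 4 were not tested. JUNB site 1 passed it only through the 48 h libraries, where it is high, so its call had to go that way and is given as a description. JUND site 4, highest in untreated cells, passed it only through 1 untreated library and 1 library of 48 h. Its calls are given as descriptions too. Sites of each gene are numbered by rising coordinate on hg38. JUN sites 2 and 3, JUNB site 6 and JUND sites 1, 2 and 4 had a deposited peak in untreated cells alone. ATF3 sites 6 and 8 complete the tested sites of this kind. They stand in the table through the condition in which they are high, so their falls are given as descriptions. Chromosome 1 carries JUN, ATF3 and BATF3, and chromosome 19 carries JUNB and JUND.

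The cells came from human breast cancer and are labelled Er-/Pr-/Her2-, and the series title places them in a study of drug-induced mesenchymal-epithelial transition. ZEB1, a zinc finger repressor of epithelial genes, was mapped with an anti-ZEB1 antibody by CUT&RUN, in which an antibody tethers a nuclease that releases the DNA under the bound protein. Untreated cells carry the cell line label MDA_Parental. Treated cells carry the label MDA_ERI and received eribulin at 300 nM for 24, 48 or 72 h. Eribulin, spelled Erubilin in the labels, is a breast cancer drug that blocks microtubule growth. No other agent or allele is named, and whether MDA_ERI was a line kept apart from the parental cells is not stated. Each condition had 2 ZEB1 libraries. The single untreated control has no time point, so effects of the drug and of culture time cannot be told apart. The sample descriptions also mention Tn5, which is not a CUT&RUN enzyme, so the labels leave the protocol uncertain. Occupancy of ZEB1 gives no expression level, so the labelled cell type could not be checked against marker genes. All comparisons ask how the ZEB1 signal at these genes differed between untreated and eribulin-treated cells.

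AP-1 is a dimer of basic leucine zipper proteins that binds DNA as pairs drawn from the JUN, FOS, ATF and MAF families. JUN is activated through phosphorylation by the JNK kinases, JUNB and JUND share its DNA-binding and zipper regions but activate different target genes, ATF3 is induced by cell stress and often represses, and BATF3 pairs with JUN proteins and is best known from dendritic cells. In breast cancer cells without hormone receptors, AP-1 is known as a driver of invasion genes, and ZEB1 is known to bind DNA both through its own E-box motif and together with AP-1.

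The sequences just upstream of the gene starts are shown for JUN, JUNB and JUND, because a ZEB1 site overlapped the RefSeq promoter window of each. They come from RefSeq on GRCh38.p14, hold the 250 bases before the annotated start, and run from 5′ to 3′ on the strand of the gene. The JUN stretch is chr1:58784048-58784297 on the minus strand, the JUNB stretch chr19:12791236-12791485 on the plus strand and the JUND stretch chr19:18281623-18281872 on the minus strand. Capitals mark a match to TGACNTCA, a motif chosen after the sequences were seen.
JUN: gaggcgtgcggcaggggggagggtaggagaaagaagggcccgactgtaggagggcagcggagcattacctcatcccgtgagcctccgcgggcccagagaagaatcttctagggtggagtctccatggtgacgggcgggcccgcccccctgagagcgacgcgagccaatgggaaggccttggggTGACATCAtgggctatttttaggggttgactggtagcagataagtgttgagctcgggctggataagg
JUNB: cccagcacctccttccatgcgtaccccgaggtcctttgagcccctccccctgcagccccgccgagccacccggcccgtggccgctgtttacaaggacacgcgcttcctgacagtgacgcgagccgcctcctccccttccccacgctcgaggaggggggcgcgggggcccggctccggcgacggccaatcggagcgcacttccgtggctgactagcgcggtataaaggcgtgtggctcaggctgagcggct
JUND: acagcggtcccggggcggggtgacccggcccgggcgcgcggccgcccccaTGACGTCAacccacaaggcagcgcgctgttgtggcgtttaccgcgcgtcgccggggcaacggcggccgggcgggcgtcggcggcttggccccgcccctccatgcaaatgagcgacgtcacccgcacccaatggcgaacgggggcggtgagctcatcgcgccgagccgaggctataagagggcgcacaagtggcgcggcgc
Motifs were searched on both strands in windows of 300 bases, the 250 upstream and the 50 that follow. TGACNTCA, which includes the cyclic AMP response element TGACGTCA, was found in 7.72% of 35116 RefSeq promoter windows, and TGACGTCA alone in 1.85%. JUN held TGACATCA starting at position -67 from the gene start, and JUND held TGACGTCA starting at -200. The upstream promoter of ATF3, chr1:212565157-212565406, held TGACATCA starting at -123, and the JUNB window held no match. The AP-1 motif TGANTCA, found in 7.71% of windows, and the ZEB1 E-box CACCTG or CAGGTG, found in 20.6%, had no match in the windows of JUN, JUNB, JUND or either promoter of ATF3. BATF3 is described without a promoter sequence. No sequence of the ZEB1 sites outside these windows was searched.

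Total counts in sites ran from 1130706 to 3561455 per library and were largest in the untreated libraries. The libraries of a pair differed by less than sampling noise, with chi-square values per degree of freedom from 0.83 to 0.951 over sites with at least 20 counts, where sampling alone gives about 1. Each pair was therefore counted as 1 sample, so n = 1 per condition. Adjusted p-values (edgeR quasi-likelihood test on 46436 sites, Benjamini-Hochberg) compare these libraries and say nothing of the spread between cultures, and intervals are 95% intervals that cover counting error only. Levels are CPM, counts scaled to a common library total with TMM factors, which set the bulk of sites equal between conditions. Scaling to the background level of the deposited peak calls instead shifted the median log2 change of all sites by -0.93, -1.42 and -1.5 at 24, 48 and 72 h. Every change below is thus relative to the bulk of ZEB1 sites, and values on the second scale are called background-scaled.

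ZEB1 signal around the 5 genes was mostly lower under eribulin. Summed over the 32 sites, it was 1483 CPM in untreated cells, 755 at 24 h, 893 at 48 h and 824 at 72 h, which is 50.9%, 60.2% and 55.6% of the untreated level. Of the 29 tested sites, 21 fell and 1 rose at 24 h, against 26.8% lower and 28.0% higher among all tested sites. At 48 h 16 fell and 1 rose, against 16.9% and 16.8% of all tested sites. At 72 h 19 fell and 1 rose, against 17.0% and 18.9%. The median log2 change of the 29 sites was -0.84, -0.62 and -0.85, beside 0.02, -0.01 and 0.00 over all tested sites. The 1 higher site at 48 h and at 72 h was JUNB site 1. Sites named above with a peak in untreated cells alone are among the lower ones. At 24 h and 72 h these are JUN sites 2 and 3, JUNB site 6, JUND sites 1 and 2, and ATF3 sites 6 and 8. At 48 h they are the same without JUNB site 6 and ATF3 site 6. They entered the table through the condition in which they are high, so the counts and medians that include them are descriptions. Counts without them are not given. The background scaling lowers most sites of the table. On it, 27 members fell and 0 rose at 24 h, beside 65.0% lower and 6.07% higher among all tested sites. At 48 h 28 fell and 1 rose, beside 83.5% and 3.70%, and at 72 h 28 fell and 0 rose, beside 82.9% and 2.39%. The medians on this scale were -1.77, -2.03 and -2.35 for the members and -0.91, -1.42 and -1.5 for all tested sites.

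Counting each pair of libraries as 1 sample without a test, 13 of the 29 sites were at least 2-fold lower and 0 at least 2-fold higher at 24 h, beside 13.8% and 15.4% of all tested sites. At 48 h 8 were lower and 1 higher at that size, beside 8.11% and 11.6%, and at 72 h 12 were lower and 1 higher, beside 9.43% and 13.5%. When a coefficient of variation of 0.2 between cultures was assumed in place of the measured spread, 15 sites fell and 0 rose at 24 h, beside 14.5% and 15.7% of all tested sites. Under that assumption 9 fell and 1 rose at 48 h, beside 5.34% and 8.68%, and 14 fell and 1 rose at 72 h, beside 6.24% and 10.2%.

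The sites at these genes were strong ones in untreated cells. Their median untreated level was 31.8 CPM against 10.6 CPM for all consensus sites, and 26 of the 32 lay above that median. Strong sites were more often lower in the whole table as well. Among the 14919 tested sites with at least 20 CPM in untreated cells, 49.1%, 33.3% and 33.9% fell at 24, 48 and 72 h, while 19, 14 and 17 of the 22 such sites at the 5 genes did (86.4%, 63.6% and 77.3%). The part that site strength had in the result was not tested beyond this comparison.

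**Figure D1:**
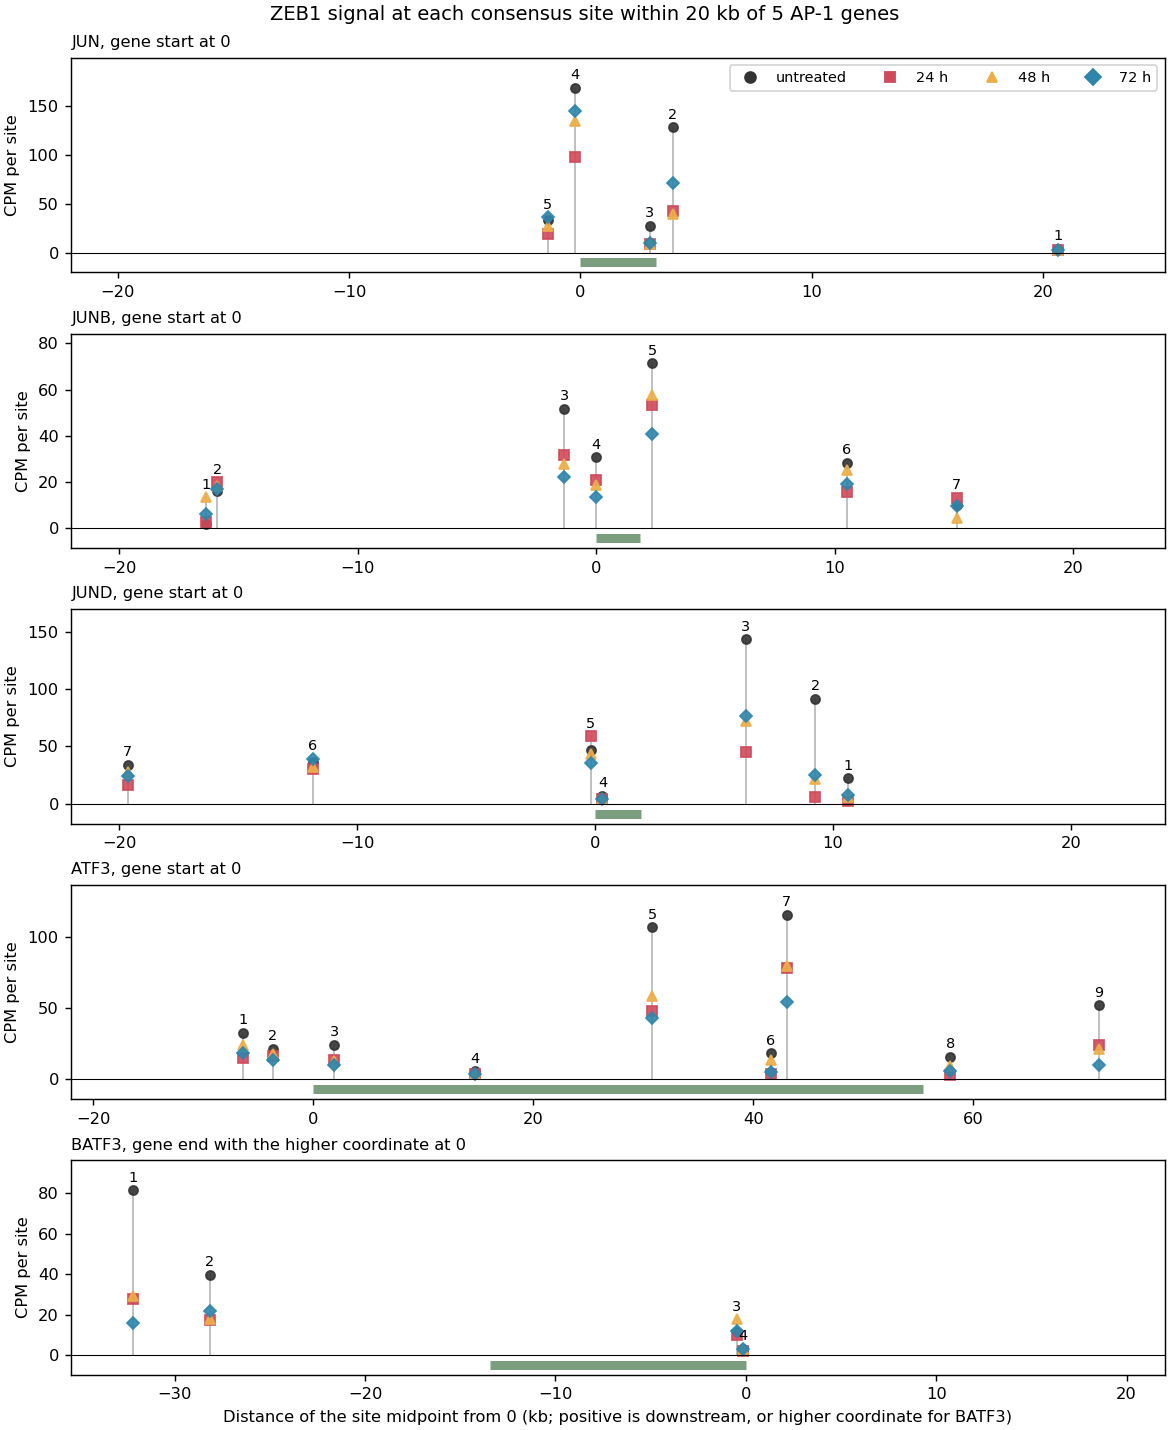
ZEB1 signal at each of the 32 sites, in CPM per site, against the distance of the site midpoint from the gene start in kb (for BATF3, from the gene end with the higher coordinate), with the gene as a bar under the axis. Each symbol is the pooled value of a condition, the number is the site number, and most untreated circles stand above the treated symbols, as at JUND site 2 with 91.4 CPM against 5.78 to 25.0.

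Across exposure times, 15 of the 29 tested sites fell at 24, 48 and 72 h alike, as did 9.22% of all tested sites. The 3 comparisons share the untreated libraries, so an untreated level that is high or low enters all of them. A further 4, JUNB sites 5 and 6 and ATF3 sites 1 and 6, fell at 24 h and 72 h but did not pass at 48 h. JUN site 5 and JUND site 7 passed as lower at 24 h alone, and JUNB site 7 at 48 h alone. JUND site 5 passed as higher at 24 h alone and JUNB site 1 as higher at 48 h and 72 h, and 5 sites passed at no time.

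Per length, the untreated signal was densest at JUN, with 182 CPM per kb of site, and next at JUND with 129. ATF3 had 110.2 CPM per kb, BATF3 87.3 and JUNB 69.6. At 72 h JUN had 133 CPM per kb, JUND 71.7, ATF3 46.2, JUNB 42.6 and BATF3 34.0, so JUN stayed first. The summed JUNB level was 75.0% of untreated at 24 h and 78.8% at 48 h, while the other 4 genes lay between 41.9% and 52.3% at 24 h and between 49.6% and 61.3% at 48 h. At 72 h JUN was highest with 73.2%, followed by JUNB with 61.2% and JUND with 55.6%, and ATF3 and BATF3 had 42.0% and 38.9%.

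**Figure D2:**
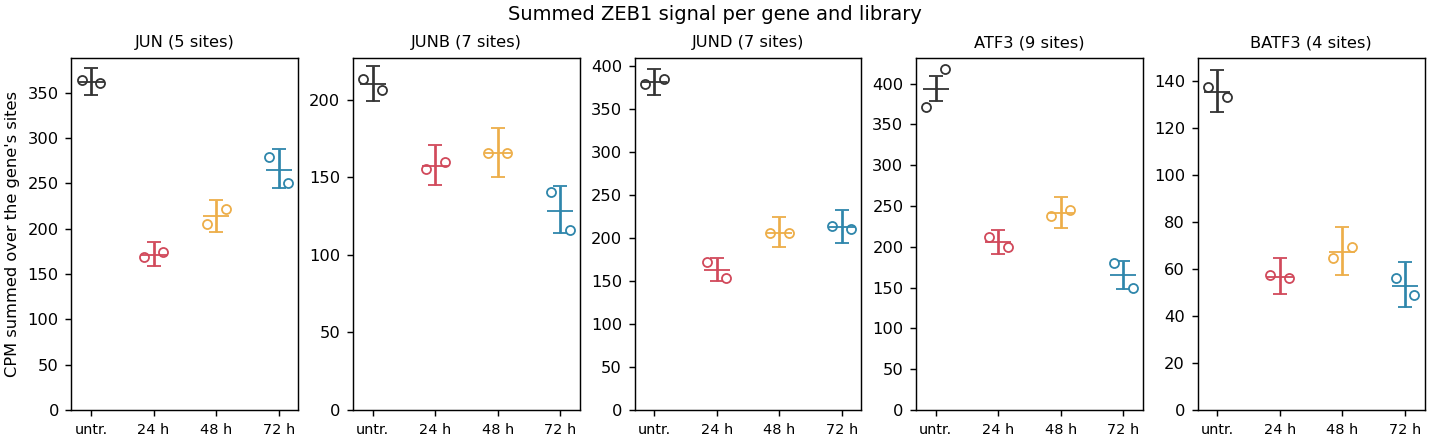
ZEB1 signal summed over the sites of each gene, in CPM, by condition. Open circles are the 2 libraries, the horizontal line is the pooled value and the bar its 95% counting interval, and in each gene both libraries of every treated condition lie below both untreated libraries.

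JUN itself carried the strongest ZEB1 site of the 5 genes, at its own start, and had its lowest signal at 24 h, with higher values at 48 h and 72 h relative to the bulk of sites. JUN lies at chr1:58780791-58784047 on the minus strand. Its sites together had 364 and 360.1 CPM in the untreated libraries, against 168 and 175 (24 h), 205 and 222 (48 h) and 279 and 251 (72 h) under eribulin. The pooled level was 47.3% of untreated at 24 h (log2 -1.08, interval -1.21 to -0.95), 58.9% at 48 h and 73.2% at 72 h (log2 -0.45, -0.58 to -0.32). Background-scaled, these log2 changes were -2.01, -2.19 and -1.95, without the rise over time.

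JUN site 4, chr1:58783895-58784683, spans the gene start and overlaps the RefSeq promoter printed above. Its level ranked at the 99.5th percentile of all sites in untreated cells. It had 168 and 169.5 CPM in the untreated libraries, while those of 24 h had 94.9 and 101, those of 48 h 127 and 143, and those of 72 h 152 and 137. Untreated and treated libraries did not overlap at any time. The site fell at each time, with log2 changes of -0.78 at 24 h (interval -0.96 to -0.61, adjusted p = 1.50e-19), -0.32 at 48 h (adjusted p = 0.00124) and -0.22 at 72 h (adjusted p = 0.0414). The 72 h call was lost under 8 alternatives, among them leaving out any of the 4 libraries compared (log2 -0.30 to -0.15). The 48 h call was lost without the 48 h replicate 1 (log2 -0.23), and with the assumed coefficient of variation of 0.2 only the 24 h call remained. Background-scaled, the log2 changes were -1.72, -1.75 and -1.72, nearly the same at all times.

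JUN site 2, chr1:58779730-58780366, lies 425 bp beyond the 3′ end of JUN and overlaps no annotated gene. The untreated libraries had 127 and 129.6 CPM there, those of 24 h 45.2 and 40.9, those of 48 h 38.6 and 40.8, and those of 72 h 77.9 and 63.9. All treated libraries were far below the untreated ones, and the 72 h libraries were above those of the other two times. The log2 change was -1.57 at 24 h (adjusted p = 2.61e-38), -1.69 at 48 h (adjusted p = 2.20e-33) and -0.85 at 72 h (adjusted p = 1.22e-11). Set against JUN site 4 within the same libraries, which no scaling can move, its log2 change differed by -0.79 at 24 h (interval -1.09 to -0.49), by -1.37 at 48 h (-1.73 to -1.02) and by -0.63 at 72 h (-0.94 to -0.32). The 3′ site thus had the larger fall at each time. It had a deposited peak in untreated cells alone, while the promoter site had one in every condition, so this difference is given as a description.

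JUN site 3, chr1:58780985-58781093, lies inside the gene near its 3′ end. It had 30.7 and 23.7 CPM in the untreated libraries, with 8.21 and 9.16 after 24 h, 8.50 and 9.06 after 48 h, then 9.52 and 10.2 after 72 h. The treated libraries were alike and well below the untreated ones, with log2 changes of -1.65, -1.64 and -1.47 (adjusted p = 1.08e-10, 5.22e-08 and 2.83e-06). JUN site 5, chr1:58785273-58785637, lies upstream of the gene in the divergent long non-coding gene JUN-DT. Its libraries had 33.9 and 33.0 CPM untreated, against 16.4 and 21.0 (24 h), 27.0 and 27.2 (48 h) and 36.3 and 36.1 (72 h) under eribulin. It fell at 24 h (log2 -0.84, adjusted p = 3.49e-05), and at 72 h its log2 change was 0.11 (interval -0.27 to 0.49) with TMM and -1.39 background-scaled. JUN site 1, 17355 bp from the gene, had 4.16 CPM untreated and 2.67 to 3.13 under eribulin and was not tested.

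JUNB, which restrains cell division in several cell types, had weaker ZEB1 sites than JUN, and its promoter site had its lowest values at 72 h. JUNB lies at chr19:12791486-12793315 on the plus strand, and the neighbouring gene HOOK2 overlaps its start. Its 7 sites together had 213 and 206 CPM in the untreated libraries, while those of 24 h had 155 and 159, those of 48 h 165 and 165, and those of 72 h 140.2 and 116. The pooled log2 change was -0.41 at 24 h (interval -0.56 to -0.28), -0.34 at 48 h (-0.50 to -0.19) and -0.71 at 72 h (-0.90 to -0.52). Its 4 strongest sites, numbered 3 to 6, each fell at 24 h and at 72 h.

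JUNB site 4, chr19:12791343-12791608, spans the gene start and overlaps the JUNB promoter and HOOK2. Its libraries had 32.1 and 29.0 CPM untreated, with 20.5 and 21.6 after 24 h, 20.1 and 17.4 after 48 h, then 12.1 and 14.8 after 72 h. Each treated library lay below both untreated ones, and the 72 h libraries were the lowest. The log2 changes were -0.54 (adjusted p = 0.00803), -0.71 (adjusted p = 0.00534) and -1.19 (interval -1.80 to -0.63, adjusted p = 2.92e-05). With the assumed coefficient of variation of 0.2, only the 72 h call remained (adjusted p = 0.0221). The 24 h call was also lost without the untreated replicate 1 (log2 -0.49) or the 24 h replicate 1 (-0.50), and the 48 h call without the 48 h replicate 2 (-0.59). DESeq2 did not keep the 24 h and 48 h calls either. The change at this promoter site at 72 h was larger than at the JUN promoter site, which differed from it by 0.97 on the log2 scale (interval 0.38 to 1.61). At 24 h that difference was -0.24 (interval -0.66 to 0.19) and at 48 h 0.39 (-0.10 to 0.91), both with intervals that include 0.

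JUNB site 5, chr19:12793473-12794187, lies 158 bp beyond the 3′ end of JUNB and was the strongest at this gene. It had 75.3 and 66.9 CPM untreated, against 52.3 and 54.4 (24 h), 59.5 and 55.9 (48 h) and 45.0 and 36.1 (72 h) under eribulin. It fell at 24 h (log2 -0.42, adjusted p = 0.00126) and at 72 h (log2 -0.81, adjusted p = 2.36e-06), and at 48 h its log2 change of -0.31 had an adjusted p of 0.0582. JUNB site 3, chr19:12789885-12790428, lies in HOOK2 about 1058 bp upstream of JUNB. It had 51.3 and 52.1 CPM in the untreated libraries, while those of 24 h had 30.3 and 33.4, those of 48 h 29.4 and 26.4, and those of 72 h 25.1 and 19.4. The log2 changes there were -0.70, -0.89 and -1.21 (adjusted p = 1.08e-05, 4.16e-06 and 2.04e-08). Sites 3 and 4, just upstream of and at the JUNB start, thus both fell at each time.

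JUNB site 6, chr19:12801700-12802274, overlaps the RefSeq promoters of PRDX2, which encodes a peroxide-reducing enzyme, and of THSD8. It had 27.8 and 29.0 CPM untreated, with 20.01 and 10.8 after 24 h, 26.3 and 24.2 after 48 h, then 21.6 and 16.7 after 72 h. It fell at 24 h (log2 -0.87, adjusted p = 9.17e-05) and at 72 h (log2 -0.56, adjusted p = 0.0477), and without the 24 h replicate 2 the first of these calls was lost, at a log2 change of -0.52. The 72 h call was lost under 8 alternatives, among them leaving out any of the 4 libraries compared (log2 -0.76 to -0.39). JUNB site 7, chr19:12806487-12806701 in RNASEH2A, was called lower at 48 h alone (log2 -1.22, adjusted p = 0.0153), where its libraries had 1.55 and 6.80 CPM against 9.27 and 10.6 untreated. That call rested on the lower of these libraries, since without it the log2 change was -0.52 and did not pass, and it was also lost without the untreated replicate 2 (log2 -1.13). Without the 48 h replicate 2 it was -2.61.

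JUNB site 1, chr19:12775028-12775205 in HOOK2, 16281 bp from JUNB, was the exception among the sites of this gene. It had 1.45 and 1.98 CPM in the untreated libraries, against 3.08 and 2.16 (24 h), 10.0 and 16.6 (48 h) and 5.19 and 7.40 (72 h) under eribulin. The 48 h and 72 h libraries stood above both untreated ones. Its log2 change was 2.93 at 48 h and 1.84 at 72 h with TMM, and 1.53 and 0.37 when background-scaled. It was the only site of the 32 with no peak in untreated cells, and its only deposited peak was at 48 h, so it stands in the table and passed the count filter through the condition in which it is high. No test is drawn from it for that reason. Its 72 h call was in addition lost without the untreated replicate 1 (log2 1.62) or the 72 h replicate 2 (1.58). JUNB site 2, close by at chr19:12775345-12775867, overlaps the RefSeq promoter of HOOK2. The deposited 48 h peaks at sites 1 and 2 had the same fold enrichment (4.14) and the same -log10 q (3.01). JUNB site 2 had 16.2 CPM untreated and 17.0 to 19.97 under eribulin and passed at no time with all libraries. Without the 24 h replicate 1 it was called higher at 24 h (log2 0.71), and with the background scaling its log2 changes turned to -0.63, -1.24 and -1.43.

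**Figure D3:**
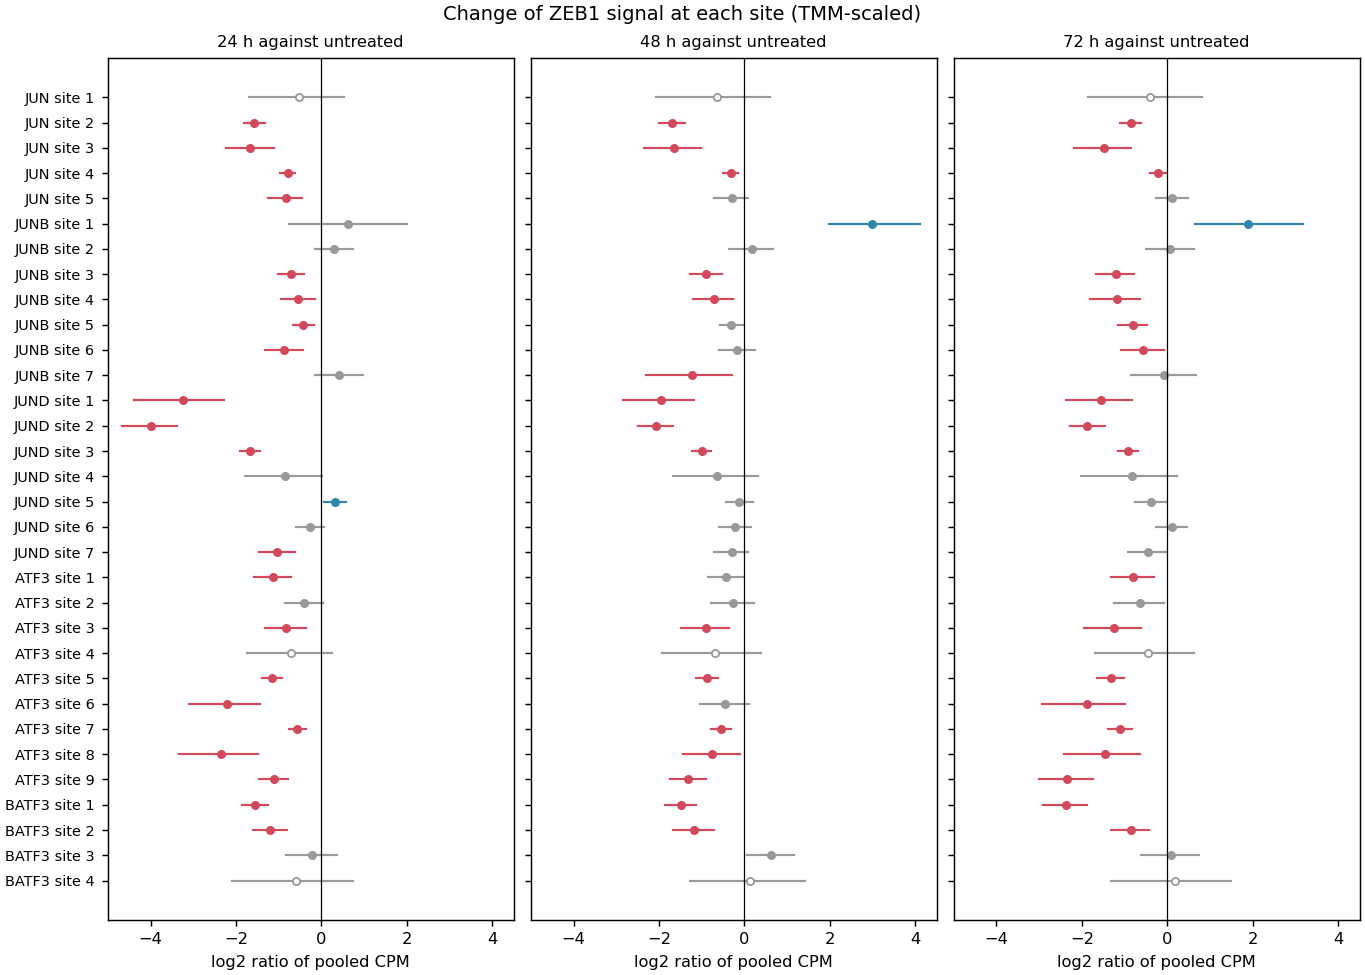
Log2 ratio of pooled TMM-scaled CPM against untreated cells for each of the 32 sites at 24, 48 and 72 h, with 95% counting intervals as bars. Red points were called lower and blue points higher by edgeR, grey points were not called, open points were not tested, and 21, 16 and 19 points are red; with the background scaling the blue points of JUND site 5 at 24 h and JUNB site 1 at 72 h are no longer called higher.

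JUND, the JUN protein that is made most steadily in resting cells, showed the widest spread between sites at 24 h. Signal dropped most steeply at 2 sites in the downstream gene IQCN, while the site at the JUND start was called higher at 24 h with TMM and lower with the background scaling. JUND lies at chr19:18279694-18281622 on the minus strand. Its 7 sites together had 379 and 385 CPM in the untreated libraries, while those of 24 h had 172 and 154, those of 48 h 206 and 206, and those of 72 h 214 and 211. The pooled log2 change was -1.23 at 24 h (interval -1.36 to -1.10), -0.89 at 48 h (-1.03 to -0.75) and -0.85 at 72 h (-0.99 to -0.70).

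JUND site 2, chr19:18272103-18272646 in IQCN, lies 7048 bp beyond the 3′ end of JUND and had the largest fall of the 29 tested sites at 24 h. Its libraries had 97.3 and 84.8 CPM untreated, with 5.13 and 6.47 after 24 h, 23.2 and 20.4 after 48 h, then 22.5 and 27.8 after 72 h. The 24 h libraries were the lowest, and those at 48 h and 72 h lay between them and the untreated ones. The site fell at each time, with log2 changes of -3.97 at 24 h (interval -4.67 to -3.37, adjusted p = 1.60e-60), -2.07 at 48 h (adjusted p = 2.72e-30) and -1.87 at 72 h (adjusted p = 1.87e-24). These falls and their rank are descriptions, because the only deposited peak of the site was in untreated cells. The rise from 24 h to 72 h was 2.10 (interval 1.38 to 2.90, adjusted p = 1.41e-08) and 1.53 with the background scaling (adjusted p = 4.05e-05).

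JUND site 1, chr19:18270904-18271079, also lies in IQCN and followed the same order at a lower level. It had 21.4 and 23.1 CPM untreated, against 2.05 and 2.69 (24 h), 8.50 and 3.02 (48 h) and 8.65 and 6.48 (72 h) under eribulin. Its log2 changes were -3.20, -1.94 and -1.54 (adjusted p = 5.01e-17, 4.00e-08 and 1.60e-05). The 48 h libraries differed, and the log2 change at 48 h was -2.84 without replicate 1 of that time and -1.36 without replicate 2. JUND site 3, chr19:18274871-18275723, lies between the 2 genes and was the strongest site at JUND. It had 138 and 150.4 CPM in the untreated libraries, while those of 24 h had 50.8 and 39.3, those of 48 h 71.1 and 72.5, and those of 72 h 80.5 and 71.3. Its log2 changes were -1.67, -1.0 and -0.92 (adjusted p = 3.81e-44, 7.76e-19 and 1.48e-14). These 3 sites downstream of JUND all had their lowest level at 24 h.

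JUND site 5, chr19:18281444-18282172, spans the gene start, overlaps the JUND promoter printed above and contains the annotated microRNA gene MIR3188. It had 44.6 and 49.5 CPM in the untreated libraries, with 62.1 and 55.5 after 24 h, 42.5 and 43.8 after 48 h, then 37.2 and 34.2 after 72 h. The 24 h libraries were above the untreated ones and the 72 h libraries below them. The log2 change at 24 h was 0.33 with TMM (interval 0.07 to 0.58, adjusted p = 0.0210), and it was -0.60 with the background scaling. The call at 24 h was also lost with DESeq2, with the assumed coefficient of variation, and without the untreated replicate 1 (log2 0.22) or the 24 h replicate 1 (0.25). At 48 h and 72 h the log2 changes were -0.12 (adjusted p = 0.601) and -0.39 (adjusted p = 0.0704).

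Differences between sites within the same libraries do not depend on the scaling. Of 21 such differences computed, over 7 pairs of sites at 3 times, the largest at 24 h and at 48 h lay between JUND site 2 and JUND site 5. The log2 change of site 2 minus that of site 5 was -4.31 at 24 h (interval -5.04 to -3.64), -1.95 at 48 h (-2.48 to -1.43) and -1.48 at 72 h (-2.04 to -0.92). Site 2 had a peak in untreated cells alone, so its differences from site 5 are descriptions. The JUN promoter site changed by -1.11 relative to the JUND promoter site at 24 h (interval -1.42 to -0.80), and by -0.20 at 48 h (-0.57 to 0.17) and 0.17 at 72 h (-0.24 to 0.59). The JUNB promoter site changed relative to that of JUND by -0.87 at 24 h (-1.34 to -0.41), -0.59 at 48 h (-1.18 to -0.03) and -0.80 at 72 h (-1.51 to -0.12). At 24 h the JUND promoter site thus kept more of its signal than those of JUN and JUNB. These intervals are not adjusted for the number of differences.

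The remaining sites lay upstream of JUND or inside it. JUND site 7, chr19:18301144-18301376, lies upstream of JUND, and its midpoint at 19638 bp is the one closest to the 20 kb limit. Its libraries had 32.7 and 35.3 CPM untreated, against 16.4 and 16.7 (24 h), 23.9 and 31.0 (48 h) and 26.0 and 23.1 (72 h) under eribulin. It fell at 24 h (log2 -1.03, adjusted p = 6.30e-07) and did not pass later (adjusted p = 0.225 and 0.0712). The site nearest beyond the limit at any of the 5 genes, chr1:212665359-212665682 at 20896 bp from BATF3, had 14.8 CPM untreated and 6.83, 8.78 and 8.05 under eribulin. JUND site 6 had 36.7 CPM untreated and 30.5 to 39.4 under eribulin, and JUND site 4, inside the gene, 7.09 CPM against 3.94 to 4.58, and neither passed at any time with TMM. Background-scaled, both were called lower at each time. The log2 changes were -1.20, -1.63 and -1.40 at site 6 and -1.76, -2.03 and -2.29 at site 4. Those of site 4 are descriptions, because of how it passed the count filter.

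ATF3, a stress-induced member that can dimerize with JUN, had ZEB1 sites upstream, in its body and downstream of it. No site lay over either of its RefSeq promoters, and the nearest were 1783 and 5965 bp from them. ATF3 lies at chr1:212565407-212620777 on the plus strand. Its 9 sites together had 372 and 418 CPM in the untreated libraries, while those of 24 h had 212 and 199, those of 48 h 237 and 245, and those of 72 h 180.0 and 149. The pooled log2 change was -0.93 at 24 h (interval -1.05 to -0.82), -0.71 at 48 h (-0.84 to -0.58) and -1.25 at 72 h (-1.41 to -1.10), and 7, 5 and 7 of the 8 tested sites fell while 0 rose.

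ATF3 site 7, chr1:212608090-212608803 within the gene, was the strongest. Its libraries had 107 and 126 CPM untreated, with 79.0 and 77.6 after 24 h, 80.3 and 79.3 after 48 h, then 52.8 and 55.5 after 72 h. The log2 changes were -0.56 at 24 h (adjusted p = 3.77e-08), -0.54 at 48 h (adjusted p = 8.99e-06) and -1.10 at 72 h (adjusted p = 1.28e-15). ATF3 site 5, chr1:212595788-212596629 within the gene, had 99.6 and 115 CPM untreated, against 49.8 and 46.3 (24 h), 52.5 and 64.2 (48 h) and 54.5 and 30.5 (72 h) under eribulin. Its log2 changes were -1.15, -0.87 and -1.32 (adjusted p = 4.72e-22, 1.71e-11 and 1.47e-18). Neither site had a treated library that reached an untreated one.

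ATF3 site 9, chr1:212636679-212636987, lies 15902 bp beyond the 3′ end of ATF3 in the long non-coding gene LINC02773 and had its lowest values at 72 h. It had 52.7 and 51.1 CPM in the untreated libraries, while those of 24 h had 24.1 and 23.7, those of 48 h 22.4 and 19.6, and those of 72 h 11.3 and 9.26. The log2 changes were -1.12, -1.30 and -2.33 (adjusted p = 3.05e-11, 1.24e-10 and 6.19e-19), and the difference of 72 h from 24 h was -1.21 (interval -1.95 to -0.54, adjusted p = 0.000703).

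Beside these, ATF3 sites 6 and 8 were higher at 48 h than at 24 h. ATF3 site 6, chr1:212606866-212607061, had 16.5 and 20.1 CPM untreated, with 2.57 and 5.39 after 24 h, 17.0 and 9.82 after 48 h, then 3.46 and 6.48 after 72 h. Its log2 change was -2.19 at 24 h (adjusted p = 3.82e-10; -2.81 without the 24 h replicate 2), -0.44 at 48 h (adjusted p = 0.201) and -1.87 at 72 h (adjusted p = 7.46e-06). Its log2 change minus that of the neighbouring ATF3 site 7 was -1.64 at 24 h (interval -2.55 to -0.83), 0.09 at 48 h (-0.54 to 0.70) and -0.79 at 72 h (-1.87 to 0.16). Site 6 had a peak in untreated cells alone, so these differences are descriptions too. ATF3 site 8, chr1:212623137-212623485, had 13.6 and 18.8 CPM untreated, against 4.62 and 1.62 (24 h), 11.6 and 7.55 (48 h) and 6.92 and 4.63 (72 h) under eribulin. All treated libraries lay below both untreated ones, and those of 24 h were the lowest. The log2 changes were -2.32, -0.74 and -1.45 (adjusted p = 1.26e-09, 0.0440 and 0.000556). The first was -3.25 without the 24 h replicate 1 and -1.80 without the 24 h replicate 2. Its 48 h call was lost under 7 alternatives, among them leaving out the untreated replicate 2 (log2 -0.51) or either 48 h library (-1.07 and -0.45).

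Upstream and near the ATF3 start the sites were weaker. ATF3 site 1, chr1:212558713-212559228, had 28.4 and 37.9 CPM untreated, against 16.4 and 13.5 (24 h), 20.9 and 27.9 (48 h) and 18.2 and 19.4 (72 h) under eribulin. It fell at 24 h (log2 -1.13, adjusted p = 1.29e-07) and at 72 h (log2 -0.80, adjusted p = 0.00222), and the 72 h call was lost without the untreated replicate 2 (log2 -0.60) or the 72 h replicate 1 (-0.75). ATF3 site 3, chr1:212567189-212567388, lies in the gene near its upstream start. It had 26.1 and 22.4 CPM in the untreated libraries, while those of 24 h had 13.9 and 13.5, those of 48 h 10.8 and 15.1, and those of 72 h 10.4 and 10.2. It fell at each time, with log2 changes of -0.83, -0.90 and -1.24 (adjusted p = 0.000517, 0.00209 and 0.000138), and the 48 h call was lost without the 48 h replicate 1 (log2 -0.68). ATF3 site 2 had 21.6 CPM untreated and did not pass at any time (adjusted p = 0.100, 0.418 and 0.0537), though without the 72 h replicate 1 it was called lower at 72 h (log2 -1.53).

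BATF3, a small zipper protein without a transactivation domain of its own, had its ZEB1 signal mainly in 2 sites outside the gene. BATF3 lies at chr1:212686417-212699840, downstream of ATF3 on the same chromosome. Its 4 sites together had 138 and 133 CPM in the untreated libraries, with 57.5 and 56.0 after 24 h, 64.9 and 69.5 after 48 h, then 56.2 and 49.1 after 72 h. The pooled log2 change was -1.26 at 24 h (interval -1.48 to -1.04), -1.01 at 48 h (-1.25 to -0.78) and -1.36 at 72 h (-1.65 to -1.08).

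BATF3 site 1, chr1:212667370-212667917, lies 18500 bp from the gene and overlaps no annotated gene, and held 60.2% of the untreated signal. Its libraries had 82.8 and 80.1 CPM untreated, against 25.1 and 30.7 (24 h), 25.5 and 32.5 (48 h) and 15.6 and 15.7 (72 h) under eribulin. The log2 changes were -1.55, -1.49 and -2.38 (adjusted p = 1.36e-25, 3.12e-19 and 1.45e-28). BATF3 site 2, chr1:212671466-212671929, had 40.5 and 38.9 CPM in the untreated libraries, while those of 24 h had 19.0 and 15.6, those of 48 h 17.0 and 18.1, and those of 72 h 23.4 and 20.4. Its log2 changes were -1.19, -1.18 and -0.86 (adjusted p = 1.01e-09, 3.17e-07 and 0.000304). Relative to site 2, site 1 changed by -0.35 at 24 h (interval -0.86 to 0.17), -0.31 at 48 h (-0.90 to 0.29) and -1.52 at 72 h (-2.23 to -0.82), so the sites parted at 72 h.

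Inside BATF3 the signal was low. BATF3 site 3, chr1:212699138-212699604, had 10.7 and 12.2 CPM untreated, with 10.3 and 9.16 after 24 h, 19.3 and 15.9 after 48 h, then 15.6 and 8.33 after 72 h. It passed at no time with TMM. Its log2 change at 48 h was 0.62 with TMM (adjusted p = 0.0671) and -0.80 with the background scaling. BATF3 site 4 had 2.78 CPM untreated and was not tested.

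**Figure D4:**
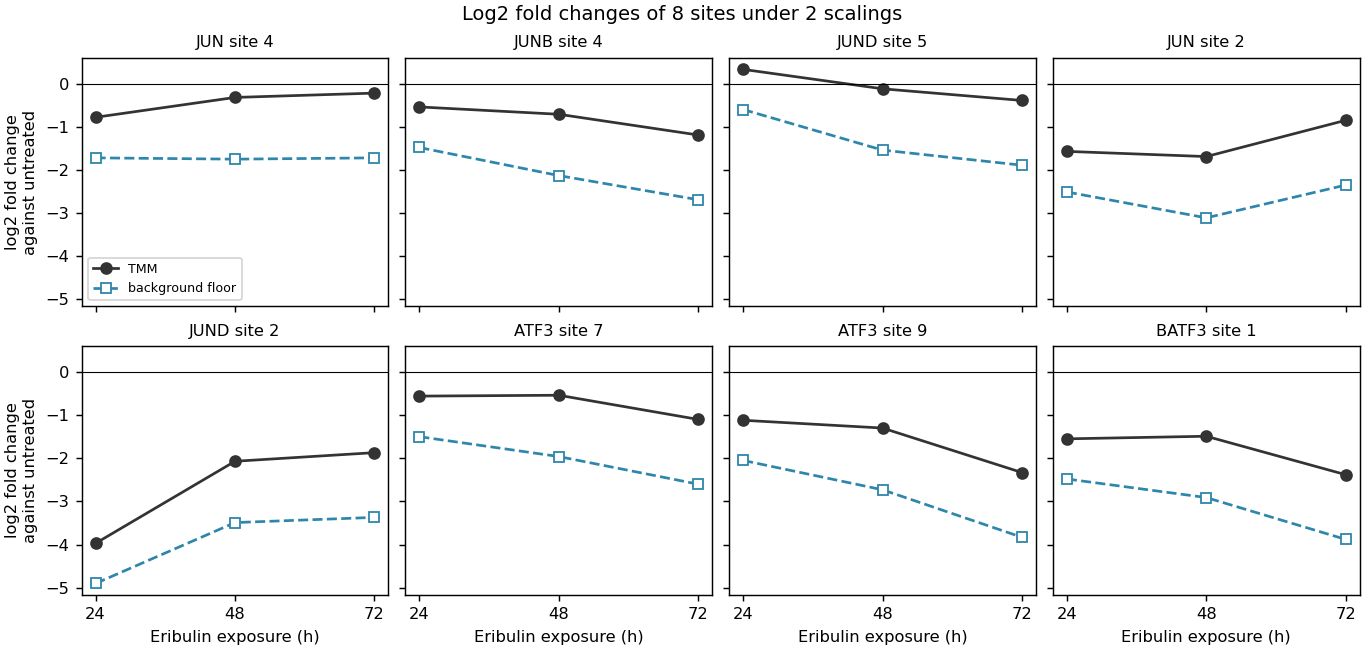
Log2 fold change against untreated cells at 24, 48 and 72 h for 8 sites, with TMM factors (filled circles) and with the background scaling (open squares). The background-scaled lines lie lower at each time, JUN site 4 is flat near -1.72 on that scale while it rises with TMM, and JUND site 5 at 24 h is 0.33 with TMM and -0.60 background-scaled.

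The members fell into different orders over time. From 24 h to 48 h, 10 of the 29 sites rose and 2 fell, against 16.8% and 14.3% of all tested sites, and with the background scaling 4 rose and 9 fell, against 7.63% and 41.1%. From 48 h to 72 h 1 rose and 3 fell, against 2.82% and 2.41%, and background-scaled 1 rose and 5 fell, against 1.91% and 3.45%. Between 24 h and 72 h 6 rose and 4 fell, against 19.4% and 16.4%, and background-scaled 1 rose and 12 fell, against 7.64% and 43.4%. The share that differed between 24 h and 72 h, 34.5% of the members, was near the 35.8% of all tested sites. Summed signal at 72 h against 24 h was higher at JUN (log2 0.63, interval 0.47 to 0.79) and JUND (0.38, 0.20 to 0.55), and lower at JUNB (-0.29, -0.50 to -0.09) and ATF3 (-0.32, -0.50 to -0.14). BATF3 had -0.11 (interval -0.44 to 0.22). With the background scaling these values were 0.06 at JUN, -0.19 at JUND, -0.87 at JUNB, -0.89 at ATF3 and -0.68 at BATF3, so the higher value of JUND turned lower and that of JUN came close to 0.

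The authors' deposited peak lists, which carry the name of replicate 1 of each condition, were set beside these values. A peak overlapped 31 of the 32 sites in untreated cells, 18 at 24 h, 18 at 48 h and 7 at 72 h, while 86.6%, 61.3%, 39.4% and 32.1% of all consensus sites had one. That is 96.9%, 56.2%, 56.2% and 21.9% of the members. Any overlap was counted, so 1 peak can count at more than 1 site. BATF3 sites 3 and 4 had the same untreated fold (7.86) and -log10 q (12.9). With at least 50% of the site covered the counts were 31, 13, 11 and 2, and a q limit of 0.01 left them at 31, 18, 18 and 7. The share of all consensus sites under these rules was not computed. JUN site 4 had a peak at all times, with deposited fold enrichments over background of 7.45 untreated, 9.27 at 24 h, 8.10 at 48 h and 7.64 at 72 h. At JUND site 3 the folds were 5.09 untreated, then 10.03, 8.66 and 6.77, although its CPM fell. Its treated peaks covered under 50% of the site. At ATF3 site 9 the folds went down, from 21.2 untreated to 11.7, 9.34 and 5.07. JUN site 2 and JUND site 2 were among the sites with peaks in untreated cells alone, and BATF3 had no peak at 72 h at any of its 4 sites. The treated libraries held fewer counts in sites than the untreated ones. The background level of the peak calls, which stands for whole-library depth, was 108%, 101% and 95.2% of untreated at 24, 48 and 72 h. The part of either in these peak counts was not tested.

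Other genes of the AP-1 system were counted by the same 20 kb rule in 4 lists, to be read against the shares of all tested sites given above for the same scaling. With the background scaling most sites of any list are lower, as in the whole table. Around 14 of 16 genes for AP-1 partners of the FOS family and relatives, 43 of 83 tested sites fell and 16 rose at 24 h, 25 and 8 at 48 h, then 29 and 15 at 72 h, with median log2 changes of -0.56, -0.20 and -0.23. Of all tested sites 26.8%, 16.9% and 17.0% fell and 28.0%, 16.8% and 18.9% rose, beside 51.8%, 30.1% and 34.9% lower in this list. The lower site with the smallest p at each time was the same, chr14:75283362-75284463 beyond one end of FOS, the immediate early partner of JUN, with 314 CPM untreated and 12.6, 67.6 and 32.6 CPM under eribulin (log2 -4.63, -2.21 and -3.26). The higher sites with the smallest p lay near NFE2L2 at 24 h (log2 1.59) and near FOSL1 at 48 h (log2 0.65) and 72 h (log2 1.23), and with the background scaling these were 0.66, -0.77 and -0.27. On that scale 66 of the 83 sites fell and 3 rose at 24 h, 79 and 0 at 48 h, then 78 and 0 at 72 h.

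For 18 genes of the JNK pathway, which activates JUN, 37 of 89 sites fell and 17 rose at 24 h, 26 and 8 at 48 h, then 27 and 11 at 72 h (medians -0.28, -0.27 and -0.11). Of all tested sites 26.8%, 16.9% and 17.0% fell and 28.0%, 16.8% and 18.9% rose, beside 41.6%, 29.2% and 30.3% lower in this list. A site near DUSP1, a phosphatase that switches JNK off, had the smallest p among the lower ones at each time, with 320.4 CPM untreated and 76.2, 129.8 and 121 CPM under eribulin (log2 -2.07, -1.30 and -1.40). Among the higher ones it was a site near the stress gene GADD45A at 24 h (log2 1.41, background-scaled 0.48), near the JNK gene MAPK9 at 48 h (1.25, background-scaled -0.17) and near the upstream kinase gene MAP3K5 at 72 h (1.17, background-scaled -0.34). On the background scale 66 fell and 6 rose at 24 h, 81 and 0 at 48 h, then 82 and 1 at 72 h.

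Around 14 genes of the ATF4 and ATF3 stress response, 29 of 57 sites fell and 15 rose at 24 h, 12 and 5 at 48 h, then 12 and 3 at 72 h (medians -0.44, -0.16 and -0.19). Of all tested sites 26.8%, 16.9% and 17.0% fell and 28.0%, 16.8% and 18.9% rose, beside 50.9%, 21.1% and 21.1% lower in this list. The later lower shares were thus near those of all tested sites. The site with the smallest p among the lower ones lay 61 bp from DDIT4, an inhibitor of mTOR signalling, at each time, with log2 changes of -2.52, -1.16 and -0.81. Among the higher ones, sites at PPP1R15A at 24 h (log2 0.99) and near TRIB3 at 48 h and 72 h (log2 1.32 and 2.28) had the smallest p, and with the background scaling these were 0.06, -0.10 and 0.81. Background-scaled, 43 fell and 0 rose at 24 h, 51 and 0 at 48 h, then 55 and 0 at 72 h.

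For 16 of 18 AP-1 target genes with tested sites, 43 of 99 sites fell and 18 rose at 24 h, 32 and 14 at 48 h, then 25 and 22 at 72 h (medians -0.28, -0.12 and -0.02). Of all tested sites 26.8%, 16.9% and 17.0% fell and 28.0%, 16.8% and 18.9% rose, beside 43.4%, 32.3% and 25.3% lower in this list. The lower sites with the smallest p lay in FOSL1 at 24 h (log2 -1.01) and near CXCL8, an interleukin gene, at 48 h (-2.02). The higher ones lay in CD44, an adhesion receptor gene, at 24 h (log2 1.43, background-scaled 0.50) and near FOSL1 at the later times, at the sites already given. Background-scaled, 80 fell and 3 rose at 24 h, 91 and 0 at 48 h, then 92 and 1 at 72 h. FOSL1 stands in both this list and that of the FOS family.

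Genes whose summed ZEB1 signal followed each member most closely over the 4 conditions were found among 13426 genes by the root mean square difference of centred log2(CPM + 1) values. Each condition is 1 sample, so these are descriptions of 4 values. For JUN these were PGAM5 (0.005), GSK3A (0.026) and RNF186 (0.036), and for JUNB FRMPD2 (0.016), PNKD (0.017) and RAB11B (0.019). For JUND they were LRRC8E (0.015), CCNJL (0.032) and COL9A2 (0.037). ATF3 was followed most closely by MYADM (0.046), P2RX7 (0.060) and TNFSF10 (0.062), and BATF3 by IL34 (0.057), VSTM2L (0.069) and CRYGN (0.078).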

How the data were processed

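ZEB1 CUT&RUN was measured in 8 libraries, 2 for each of 4 conditions, and 2 IgG libraries were not analysed here. The submitters' processing notes name the build hg38 and, without roles, Bowtie2 2.2.6, cutadapt 2.4, featureCounts, MACS2 2.1.1, Picard, bcl2fastq 2.20.0.422, deepTools and bedtools 2.30.0. The deposited table holds raw counts per library over 52981 consensus sites, and the counted unit, read or fragment, is not given in the sources used here. The deposited peak lists, 1 per condition, give a fold enrichment (a ratio), -log10 p and -log10 q values and a score per peak in the MACS2 layout, per the file names and columns the authors used. The peak names carry replicate 1.

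Counts were tested with edgeR 4.0.16 (R 4.3.3; TMM, filterByExpr, robust quasi-likelihood fit of all 8 libraries by condition, Benjamini-Hochberg adjustment, threshold 0.05). Intervals are exact conditional binomial intervals of pooled counts at 95%. The background scaling uses the local background of MACS2, recovered from the fold and -log10 p of replicate 1 peaks. In each condition the 6000 peaks with the smallest -log10 p were read, and the most frequent value was taken as the floor. It was 108%, 101% and 95.2% of untreated at 24, 48 and 72 h. That value was held by 798 peaks untreated and by 502, 362 and 208 at these times. In MACS2 such a floor follows the number of tags used, so it stands for whole-library depth and is no spike-in.

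Genes and promoters came from RefSeq GRCh38.p14, and 4 of the 5 genes matched the promoter table. Replicate numbers did not pair samples. Alternatives were DESeq2 1.42.0, RLE factors, factors from the weakest sites, no count filter, an assumed coefficient of variation of 0.2, a fit of only the groups compared, each library left out, a replicate block, windows of 5 and 50 kb, and stricter peak rules. A 2-fold rule on pooled pairs and the motif TGACNTCA were added after the data were seen. The members, lists and tests were chosen with earlier results of these data known. Values in every library are given for the site at each gene and for called sites of at least 20 CPM, with some weaker ones added after their values were seen. In each list the site with the smallest p of each direction and time is named, except 1 that is not reported here. The scripts were tested on simulated data for 72 h against untreated. The test recovered 13 of 67 changes of 1.5-fold, 35 of 67 of 2-fold and 61 of 66 of 4-fold, with 2 false calls. A site that did not pass may therefore still have changed, also by more than 2-fold. In the simulation only these sites changed, and the noise was sampling noise alone. In the real data far more sites were called, so the recovery there may differ.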

Additional observations from a re-analysis of the deposited data

Results flagged for a closer look

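The change against untreated cells differed between 24 h and 72 h at 10 member sites, by the edgeR test of 72 h against 24 h with adjustment over all tested sites. That is 34.5% of the 29 tested members, near the 35.8% of all tested sites that differed. With TMM scaling the 72 h level was higher on the log2 scale at JUN site 2 (0.72), JUN site 4 (0.56), JUN site 5 (0.95), JUND site 1 (1.66), JUND site 2 (2.10) and JUND site 3 (0.75). It was lower at JUND site 5 (-0.72), ATF3 site 7 (-0.53), ATF3 site 9 (-1.21) and BATF3 site 1 (-0.83). With the background scaling JUND site 2 was still called higher (1.53), the differences at JUN site 2 (0.15), JUN site 4 (-0.01), JUN site 5 (0.39), JUND site 1 (1.09) and JUND site 3 (0.18) were not called, and the 4 lower ones were called at -1.29, -1.10, -1.78 and -1.40.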

How the results depend on the processing

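The counts of sites that fell at 24, 48 and 72 h were 21, 16 and 19. Windows of 5 kb gave 13, 10 and 12 of 17 tested sites and windows of 50 kb gave 38, 27 and 34 of 50, since they hold fewer or more sites, and the 2-fold rule on pooled pairs gave 13, 8 and 12. The background scaling moved the 48 h count to 28 and the assumed coefficient of variation of 0.2 moved it to 9. The 1 site that rose at 24 h was called under neither the background scaling, factors from the weakest sites, DESeq2, the assumed coefficient of variation nor the pooled 2-fold rule (0 each), nor without control replicate 1 (range 0 to 1 with a library left out), and 2 rose within 50 kb. At 48 h 0 rose within 5 kb and 3 within 50 kb. At 72 h the background scaling gave 0, leaving out a library gave 0 to 1 (0 without control replicate 1 or eribulin replicate 2), 5 kb gave 0 and 50 kb gave 3. Of 26 changes between exposure times, DESeq2 called 16, the assumed coefficient of variation 7 and the 5 kb window 15, and leaving out a library gave 17 to 22, the lowest without the 48 h replicate 1. With the background scaling 8 log2 changes, none of them called lower with TMM, turned lower: JUNB site 2 at 24, 48 and 72 h (-0.63, -1.24 and -1.43), JUND site 5 at 24 h (-0.60), BATF3 site 3 at 48 and 72 h (-0.80 and -1.41), JUN site 5 at 72 h (-1.39) and JUND site 6 at 72 h (-1.40). Apart from the windows, the cause was not tested. Over the 87 log2 changes of tested sites against untreated cells, the call and direction held in 86 with RLE factors, 76 with DESeq2 and 68 with the assumed coefficient of variation. The replicate block held all 87 (21, 16 and 19 sites fell), and the replicate numbers showed no pairing, with correlations of same-numbered libraries from -0.0115 to 0.00491. With 2 libraries per condition that differ by less than sampling noise, the spread between cultures remains unmeasured.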
